A study of Saccharomyces cerevisiae with 6 samples.

Results

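The genes that build and degrade glycogen in the budding yeast Saccharomyces cerevisiae were followed in cultures exposed to edelfosine. They are 10 of the 5917 genes in the deposited table, picked by name for what their products do. Earlier results of these data were known when these genes were picked. They comprise 5 genes of synthesis (GSY1, GSY2, GLC3, GLG1 and GLG2), 2 genes of breakdown (GPH1 and GDB1) and 3 genes for proteins that target a phosphatase to glycogen (GAC1, PIG1 and PIG2). All 10 were listed in the table, passed the filter on low values and had values unlike those of any other gene. Edelfosine is a synthetic ether lipid related to lysophosphatidylcholine. Cultures in log phase, shaken at 200 rpm and 30 C in synthetic defined medium, received either 20 uM edelfosine or 0.095% ethanol, the vehicle, for 60 minutes. Each treatment had 3 libraries of poly(A) RNA, replicates 1 and 2 from W303 and replicate 3 from BY4741, so strain and replicate 3 cannot be told apart. The sample titles carry the prefix WT for both strains, and the labels call the replicates biological and do not give the ethanol content of the edelfosine cultures.

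Glycogen is the branched glucose polymer that yeast lays down as a carbon store when growth slows. The glycogenins Glg1 and Glg2 prime a chain by attaching glucose to themselves, the synthases Gsy1 and Gsy2 extend it from UDP-glucose, and Glc3 introduces the branches. The phosphorylase Gph1 releases glucose from chain ends as a sugar phosphate, and the debranching enzyme Gdb1 clears the branch points at which phosphorylase stops. Glycogen synthase is switched off by phosphorylation, and the phosphatase Glc7, brought to it by Gac1 and by the related proteins Pig1 and Pig2, switches it on. Enzyme activity is therefore set in part after transcription, and the values below are transcript levels alone.

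Stretches upstream of 4 of these genes are printed because stress motifs in front of glycogen genes are a common point of reference for their regulation. They belong to the synthase paralogues GSY1 and GSY2, to GPH1, which had 1 of the 2 largest changes of the group, and to GAC1, whose fitted change was the smallest. All are 200 bases from the R64 reference genome (RefSeq), read 5′ to 3′ on the gene's own strand. Capitals mark matches to the stress response element (STRE; AGGGG or its complement CCCCT), which the general stress factors Msn2 and Msn4 recognise, or to the post-diauxic shift element (PDS; TAAGGGAT or TTAGGGAT, on either strand). The GSY1 stretch is chrVI:176659-176858 on the minus strand and that of GSY2 is chrXII:660339-660538 on the plus strand. The GPH1 stretch is chrXVI:860949-861148 on the plus strand and that of GAC1 is chrXV:670475-670674 on the minus strand.
GSY1: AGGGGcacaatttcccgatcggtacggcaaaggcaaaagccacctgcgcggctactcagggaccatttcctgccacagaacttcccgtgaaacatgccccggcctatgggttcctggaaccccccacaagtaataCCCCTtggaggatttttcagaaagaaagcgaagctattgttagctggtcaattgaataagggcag
GSY2: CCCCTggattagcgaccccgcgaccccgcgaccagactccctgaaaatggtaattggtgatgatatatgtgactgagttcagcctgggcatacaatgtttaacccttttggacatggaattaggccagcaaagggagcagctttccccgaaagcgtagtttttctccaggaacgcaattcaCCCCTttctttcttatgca
GPH1: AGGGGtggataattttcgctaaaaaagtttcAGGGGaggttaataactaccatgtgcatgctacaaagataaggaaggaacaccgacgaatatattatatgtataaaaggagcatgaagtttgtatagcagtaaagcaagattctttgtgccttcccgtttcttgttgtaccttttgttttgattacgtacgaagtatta
GAC1: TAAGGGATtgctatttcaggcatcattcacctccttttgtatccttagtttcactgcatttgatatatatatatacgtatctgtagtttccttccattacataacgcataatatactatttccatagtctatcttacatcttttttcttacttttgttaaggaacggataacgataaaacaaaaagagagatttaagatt

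In the 600 bases before the start codon, 7 of the 10 genes held at least 1 STRE and 6 held at least 2, against 39.9% and 10.9% of the 5699 genes searched in the same way. GPH1 and GLC3 had 3 matches each, and 2.53% of all genes had that many. GSY1, GSY2, GLG2 and PIG2 had 2 matches and GDB1 had 1. GLG1 and PIG1 had none, and GAC1 had none but carried a PDS match, as 3.02% of all genes did. Of the 7 genes that rose after edelfosine (below), 5 held an STRE, and so did 2 of the 3 that were not called. The search window of 6 genes, GLC3, GLG1, GLG2, GDB1, PIG1 and PIG2, reached into a neighbouring protein-coding gene. A match describes the letters of the reference strain S288C and is not evidence that a factor binds there.

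**Figure D1:**
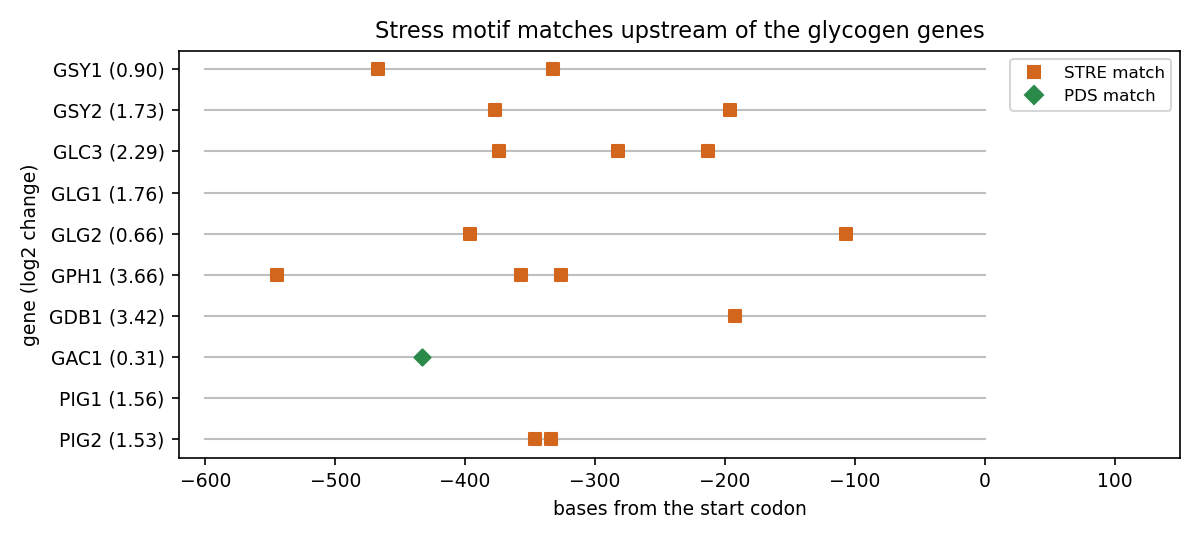
Matches to the STRE (squares) and to the PDS (diamond) in the 600 bases upstream of each glycogen gene; the horizontal axis gives bases from the start codon and the number after each name is the log2 change after edelfosine. GPH1 and GLC3 carry 3 STRE matches each, whereas GLG1 and PIG1 carry neither motif.

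The deposited values are TPM, transcript abundances that are corrected for transcript length and have the same total in every library, so read depth is unknown. Between 5550 and 5717 genes reached 1 TPM in a library. For comparisons between libraries TPM was divided by a library factor that centres the typical gene (scaled TPM), and changes are therefore relative to the typical gene and not per cell. Of 4 genes checked as strain markers, MET17 lay between 32.9 and 55.7 TPM in the W303 libraries and was listed at 0 in the BY4741 libraries, and LEU2 and URA3 were at most 0.0868 TPM in BY4741. HIS3, which carries a mutation in both backgrounds, was at 24.3 to 52.7 TPM in W303 and 90.5 to 102 in BY4741. Libraries of one treatment resembled each other most, with Pearson correlations across genes of 0.974 to 0.992 among vehicle and 0.951 to 0.975 among edelfosine libraries. Edelfosine replicate 1 lay nearer to the vehicle libraries (0.868 to 0.876) than edelfosine replicate 2 did (0.787 to 0.812), and it was the lowest of the 3 edelfosine libraries for all 10 glycogen genes. Among all genes called higher, it was the lowest for 53.0%. Vehicle replicate 3, the BY4741 culture, had the highest vehicle level for 9 of the 10 genes, all but GLG2, against 36.2% of all genes.

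After 60 minutes of edelfosine, 7 of the 10 glycogen genes were higher and 0 were lower in the limma fit with strain as a term (adjusted p under 0.05), where 27.3% of the 5707 genes tested were called higher and 27.3% lower. The phosphorylase gene GPH1 and the debranching enzyme gene GDB1 rose the most, by more than 10-fold, and GSY2, GLC3, GLG1, PIG1 and PIG2 rose by 2.88-fold to 4.87-fold. GSY1, GLG2 and GAC1 were not called. Of these 3, only GLG2 had an unadjusted p under 0.05 (0.0343, limma), and no member's fitted change was below 0. All 7 rises were at least 2-fold, as 14.1% of all genes rose. The median log2 change of the 10 was 1.65, beside 0.0088 over all genes tested. In RNA from whole cultures, more responding cells and more RNA per cell cannot be told apart.

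**Figure D2:**
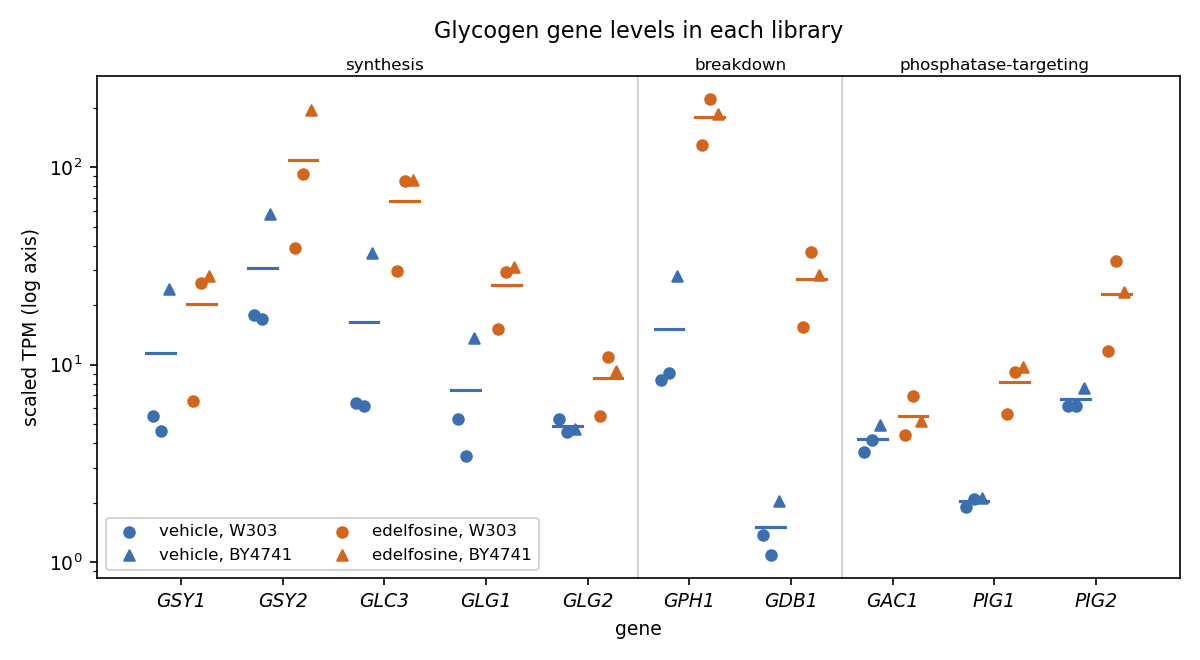
Scaled TPM of the 10 glycogen genes in each library on a log axis, vehicle in blue and edelfosine in orange, circles for W303, triangles for BY4741 and bars for group means. The edelfosine libraries of GPH1, GDB1, GLG1, GLG2, PIG1 and PIG2 lie above every vehicle library, while GSY1, GSY2, GLC3 and GAC1 overlap.

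Of the 2 priming genes 1 was called higher. GLG1 (YKR058W, chromosome XI, 552770 to 554620, R64) was at 5.31, 3.46 and 13.6 scaled TPM in vehicle replicates 1 to 3 and at 15.2, 29.3 and 31.3 in edelfosine replicates 1 to 3. The edelfosine libraries all lay above the vehicle libraries, although the BY4741 vehicle culture came close to edelfosine replicate 1. Its log2 change was 1.76 ± 0.32 (SE; adjusted p = 0.00463, limma). GLG2 (YJL137C, chromosome X, 154985 to 156127), the second glycogenin gene, was at 5.31, 4.57 and 4.74 scaled TPM with vehicle and at 5.49, 10.98 and 9.32 with edelfosine. Its groups also did not overlap, but edelfosine replicate 1 was barely above vehicle replicate 1. Its log2 change of 0.66 had a 95% interval of 0.067 to 1.26 and missed the threshold (adjusted p = 0.0600, limma). Without edelfosine replicate 1 it was called, at 0.94 (adjusted p = 0.00125, limma), and without any other single library it was not.

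Of the 2 synthase genes GSY2 was the more abundant in every library, and it alone was called. GSY2 (YLR258W, chromosome XII, 660716 to 662833), which encodes the predominant synthase, was at 17.8, 17.1 and 57.8 scaled TPM with vehicle and at 38.8, 92.9 and 195 with edelfosine. It rose within each strain, yet the groups overlapped because the BY4741 vehicle culture exceeded edelfosine replicate 1. The log2 change was 1.73 ± 0.31 (SE; adjusted p = 0.00462, limma), and this call was lost without the strain term (adjusted p = 0.0660). GSY1 (YFR015C, chromosome VI, 174265 to 176391) was at 5.49, 4.60 and 24.3 scaled TPM with vehicle and at 6.57, 26.02 and 28.0 with edelfosine. Edelfosine replicate 1 stayed near the W303 vehicle level, and in BY4741 the vehicle and edelfosine cultures were close. Its log2 change of 0.90 had a 95% interval of -0.26 to 2.06 (adjusted p = 0.157, limma), so neither no change nor a change as large as that of GSY2 lies outside the interval. Without edelfosine replicate 1 GSY1 was called, at 1.32 (adjusted p = 0.0183, limma), whereas without edelfosine replicate 2 its change was 0.31 (0.160).

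The branching enzyme gene GLC3 (YEL011W, chromosome V, 133120 to 135234) had the largest change among the synthesis genes. Its level was 6.38, 6.15 and 36.9 scaled TPM with vehicle and 29.7, 85.3 and 86.2 with edelfosine. Again the BY4741 vehicle culture lay above edelfosine replicate 1, while both W303 vehicle cultures lay far below every edelfosine library. The log2 change was 2.29 ± 0.47 (SE; adjusted p = 0.00754, limma).

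Both breakdown genes rose well beyond the spread between replicates. GPH1 (YPR160W, chromosome XVI, 861306 to 864014) was at 8.31, 9.11 and 28.0 scaled TPM with vehicle and at 130, 223 and 187 with edelfosine. The lowest edelfosine library was above the highest vehicle library by several times. Its log2 change was 3.66 ± 0.35 (SE), a 12.6-fold rise (adjusted p = 0.000772, limma), which ranked 57 from the top among the 5707 genes. GDB1 (YPR184W, chromosome XVI, 902044 to 906654) was the least abundant of the 10 transcripts with vehicle, at 1.37, 1.09 and 2.04 scaled TPM, and was at 15.5, 37.1 and 28.6 with edelfosine. The groups stood far apart in both strains. The log2 change was 3.42 ± 0.31 (SE; adjusted p = 0.000658, limma), or 10.7-fold on the log2(scaled TPM + 1) scale. That scale understates changes of low genes, and the group means of GDB1, 1.499 ± 0.490 and 27.1 ± 10.9 scaled TPM (SD, n = 3 each), differed 18.1-fold.

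The genes for phosphatase-targeting proteins rose in 2 of 3 cases. PIG1 (YLR273C, chromosome XII, 689083 to 691029) was at 1.90, 2.08 and 2.11 scaled TPM with vehicle and at 5.65, 9.12 and 9.68 with edelfosine. It had the tightest vehicle values of the 10 genes relative to its mean, and no overlap. The log2 change was 1.56 ± 0.20 (SE; adjusted p = 0.00144, limma). PIG2 (YIL045W, chromosome IX, 271161 to 272777) was at 6.16, 6.21 and 7.61 scaled TPM with vehicle and at 11.7, 33.5 and 23.2 with edelfosine. All edelfosine libraries were above all vehicle libraries, with a wide spread among them. The log2 change was 1.53 ± 0.35 (SE; adjusted p = 0.0115, limma), and the call was lost without vehicle replicate 1, 2 or 3 (adjusted p = 0.0550, 0.0559 and 0.0508). GAC1 (YOR178C, chromosome XV, 667860 to 670241), for the subunit best known for tethering Glc7 to glycogen, was at 3.59, 4.16 and 4.92 scaled TPM with vehicle and at 4.41, 6.91 and 5.21 with edelfosine. The groups overlapped, and the log2 change of 0.31 had a 95% interval of -0.16 to 0.77 (adjusted p = 0.218, limma).

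**Figure D3:**
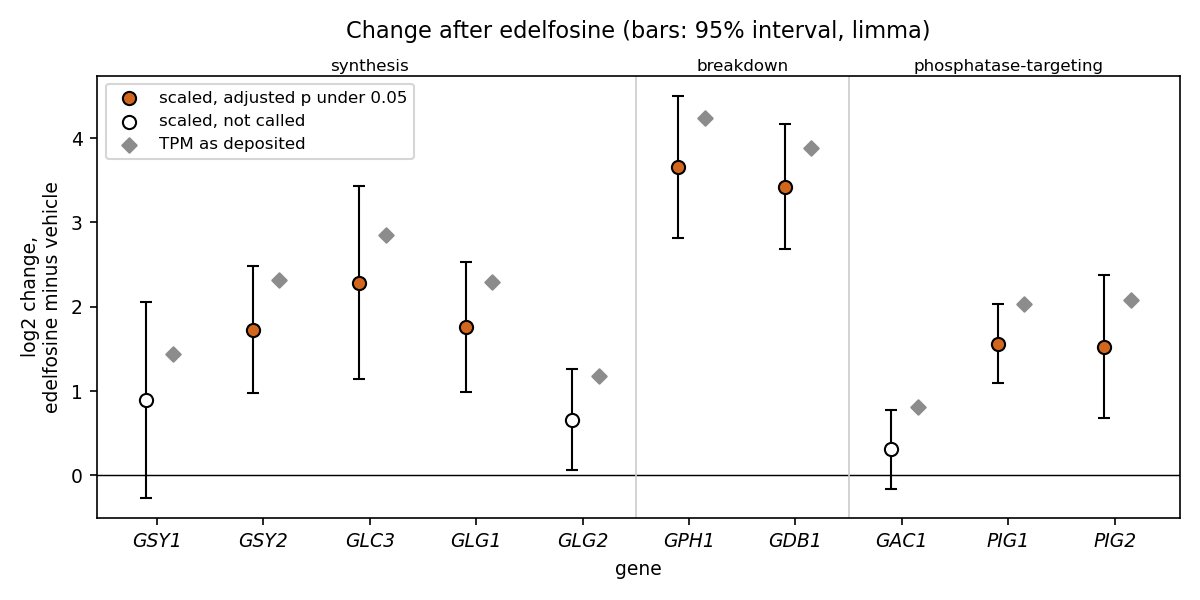
Log2 change of each glycogen gene, edelfosine minus vehicle, with its 95% interval from limma on scaled TPM (circles, filled where called) and the change in TPM as deposited (diamonds). GPH1 and GDB1 lie highest at 3.66 and 3.42, and the diamonds are above the circles for every gene.

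The groups did not overlap, with edelfosine higher, for 6 of the 10 genes, against 30.3% of all genes. In W303 alone, both edelfosine libraries were above both vehicle libraries for all 10 genes, against 38.9% of all genes. Edelfosine exceeded vehicle in all 3 same-numbered pairs for all 10 genes, against 37.7%, although the fit did not take these numbers as pairs. Without the library factors the median gene was higher by 0.55, the groups did not overlap for 8 of the 10 (53.5% of all genes), and all 10 were called higher, as were 49.7% of all genes, among them GAC1 at 0.81 (adjusted p = 0.0175, limma), GSY1 at 1.44 (0.0346) and GLG2 at 1.18 (0.00688). Without edelfosine replicate 1, 9 of the 10 were called higher on scaled TPM, against 29.8% of all genes.

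The balance between synthesis and breakdown transcripts moved towards breakdown within the libraries. Apart from the pseudocount, this comparison does not depend on the library factors. Summed TPM as deposited of the 5 synthesis genes was 33.6, 25.7 and 122 in vehicle replicates 1 to 3 and 120, 307 and 420 in edelfosine replicates 1 to 3. For the 2 breakdown genes the sums were 8.05, 7.29 and 26.8 with vehicle and 182, 326 and 259 with edelfosine. Breakdown transcripts were thus fewer than synthesis transcripts in all 3 vehicle libraries and more numerous in both W303 edelfosine libraries, but not in the BY4741 edelfosine library. The mean log2(TPM + 1) of the synthesis genes minus that of the breakdown genes was 0.83 ± 0.32 with vehicle and -1.21 ± 0.41 with edelfosine (SD, n = 3 each), a shift of -2.04. The vehicle values, 0.76, 0.56 and 1.18, were all positive, and the edelfosine values, -1.57, -1.29 and -0.76, were all negative. The same difference for phosphatase-targeting genes minus synthesis genes was -1.10 ± 0.77 with vehicle and -1.48 ± 0.44 with edelfosine, and those groups overlapped. No test was made on these sums and means, which are scores over the chosen genes.

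**Figure D4:**
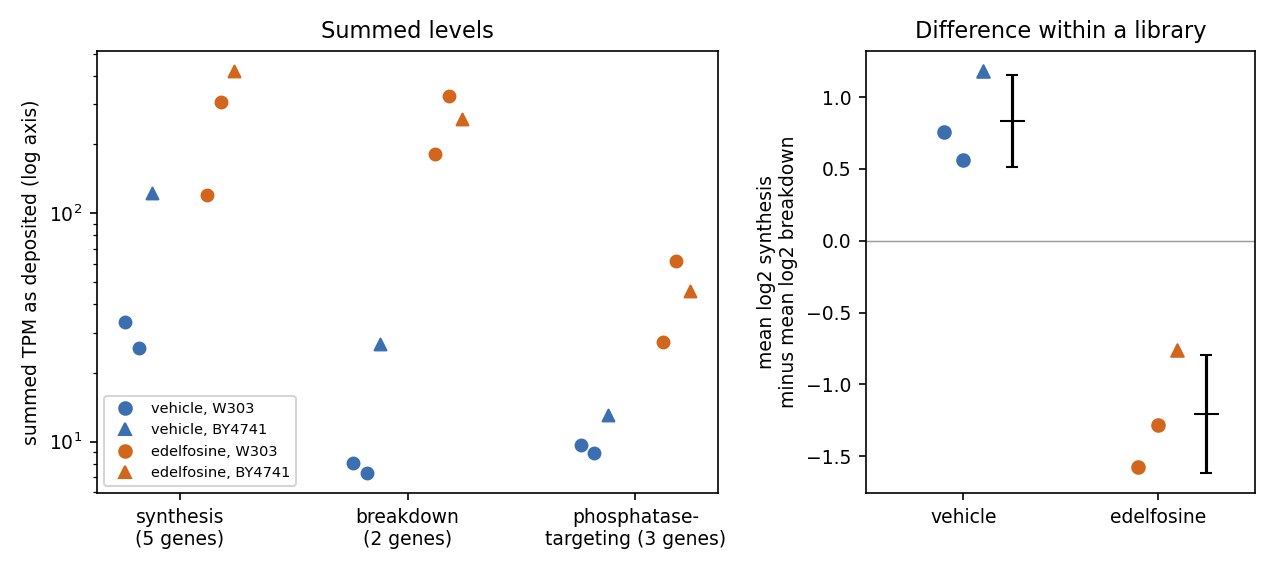
Left, summed TPM as deposited of synthesis, breakdown and phosphatase-targeting genes in each library on a log axis; right, mean log2(TPM + 1) of the synthesis genes minus that of the breakdown genes, with group mean and SD in black. The difference is positive in the 3 vehicle libraries and negative in the 3 edelfosine libraries.

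Ratios between single genes were compared with an exact two-sided permutation test of 3 against 3 libraries, which cannot give a p below 0.1, and adjusted over the 6 ratios. GPH1 relative to GSY2 went from a log2 ratio of -1.002, -0.815 and -1.015 with vehicle to 1.72, 1.25 and -0.06 with edelfosine. All edelfosine values were higher, but the BY4741 value was only just below equality of the 2 transcripts. The shift of 1.91 had an exact p = 0.1 (adjusted p = 0.150). The ratio of PIG1 to GAC1 moved from -0.73 ± 0.15 to 0.49 ± 0.27, GSY2 to GSY1 from 1.45 ± 0.21 to 2.33 ± 0.49, and GLG1 to GLG2 from 0.34 ± 0.87 to 1.46 ± 0.18 (log2, SD, n = 3 each; exact permutation p = 0.1 and adjusted p = 0.150 for each). In these 3 ratios, too, no edelfosine value overlapped the vehicle values, but with a pseudocount of 0.1 in place of 1 the exact permutation p was 0.2 for GSY2 to GSY1 and 0.3 for GLG1 to GLG2. For GLG1 to GLG2 the separation was narrow, since the BY4741 vehicle value was 1.33 and the lowest edelfosine value 1.35. GSY2 made up 75.2 ± 4.33% of synthase transcripts with vehicle and 83.7 ± 4.92% with edelfosine (SD, n = 3 each). The ratio of GPH1 to GDB1 (a shift of 0.35; exact permutation p = 0.5) and that of GLC3 to GSY2 (0.53; exact permutation p = 0.2) overlapped between treatments. Paralogues could be told apart by sequence: GSY1 and GSY2 share 75.8% of aligned coding bases, and no stretch of 31 bases is shared within the pairs GSY1 and GSY2, GLG1 and GLG2, GAC1 and PIG1, or PIG2 and its relative GIP2. None of the 10 genes overlaps another annotated gene in R64.

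No strain difference passed the threshold for these genes. The estimate of BY4741 minus W303 was above 0 for all 10 genes, against 49% of all genes, and 0 of them were called in the limma fit, as 0.421% of all genes were. At an unadjusted p under 0.05, 4 were higher in BY4741, where 5.27% of all genes were, and these were synthesis genes. GSY2 was higher by 1.67 ± 0.33 (log2 ± SE; adjusted p = 0.145, limma), GLC3 by 1.57 ± 0.50 (0.316), GSY1 by 1.54 ± 0.51 (0.331) and GLG1 by 1.00 ± 0.34 (0.334). The breakdown gene GPH1 just missed that threshold, at 0.86 ± 0.37 (unadjusted p = 0.0575, adjusted p = 0.444, limma), close to the estimate for GLG1. Neither GDB1 (0.34 ± 0.33) nor PIG1 (0.22 ± 0.21) stood out. Whether the strain difference varied between synthesis and breakdown genes was not tested. Only 1 culture per treatment was BY4741, so these estimates describe replicate 3 as much as the strain.

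Whether the response differed between the strains could be tested only with 2 residual degrees of freedom. No member had an interaction of strain and treatment that passed in limma (0 of 10, adjusted p = 1.00 for each), and 0 of the 5707 genes did. At an unadjusted p under 0.05 there was 1, GPH1, as there were 3.08% of all genes. GPH1 went up by 3.81 and 4.47 in the W303 pairs and by 2.69 in the BY4741 pair (log2), an interaction of -1.45 ± 0.53 (SE). For GLC3 the pairs gave 2.06, 3.59 and 1.20, and the interaction of -1.62 had a 95% interval of -3.79 to 0.54. GDB1 was more even, with 2.80, 4.19 and 3.28.

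Other genes that feed or control the pathway were called higher in 13 of 23 cases and lower in 4, where 27.3% of all genes were called in each direction, with a median log2 change of 0.74 beside 0.0088 over all genes. SGA1, counted among the higher calls, passed the filter only through its edelfosine values (below). The 4 lower calls were 1 with TPM as deposited and 1 to 3 with libraries left out, with the fewest (1) without vehicle replicate 2 or 3 or edelfosine replicate 3. These genes were listed for what they do, with earlier results of these data known. Among 6 genes of precursor supply 4 rose and 2 fell, with paralogues on both sides. The hexokinase gene HXK1 rose by 4.50 while HXK2, for the main hexokinase of growth on glucose, fell by 1.59 (adjusted p = 0.000288 and 0.0225, limma). The glucokinase gene GLK1, named after its values were seen, rose by 2.63 ± 0.25 (log2 ± SE). The phosphoglucomutase gene PGM2 rose from 25.6 ± 26.5 to 320 ± 128 scaled TPM (SD, n = 3 each; log2 change 3.95 ± 0.45, SE), and PGM1, named after its values were seen, fell by 1.34 ± 0.21 (SE). UGP1, for the enzyme that makes UDP-glucose, rose by 1.27 ± 0.43 (SE; adjusted p = 0.0436, limma), with edelfosine replicate 1 inside the vehicle range. The UGP1 call was lost without vehicle replicate 1, 2 or 3 or edelfosine replicate 3 (adjusted p = 0.112, 0.120, 0.180 and 0.146), and also with no filter (0.0545) or no strain term (0.107). The HXK2 call was lost without the same 4 libraries (0.0741, 0.0585, 0.116 and 0.128) and with TPM as deposited (0.0908).

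Of the 3 phosphatase genes 2, GIP2 and GLC8, rose, where 27.3% of all genes were called higher. GLC8, for a modulator of Glc7 and named after its values were seen, rose by 1.10 ± 0.16 (log2 ± SE). GIP2, for a further glycogen-associated Glc7 partner related to Pig2, was at 1.67, 1.84 and 4.70 scaled TPM with vehicle and at 19.1, 54.0 and 53.8 with edelfosine. That rise, 3.48 ± 0.36 (log2 ± SE; adjusted p = 0.000950, limma), was larger than the change of PIG1, PIG2 or GAC1, although the differences between these genes were not tested. GLC7, the catalytic subunit, had a log2 change of 0.14 with a 95% interval of -0.29 to 0.57 (adjusted p = 0.534, limma), and with TPM as deposited it was called higher at 0.75. Of the genes for the kinase Pho85, which acts against glycogen synthase, and 4 of its cyclins, 2 rose. That share is not far from the 27.3% of all genes called higher, and neither rise reached 2-fold. The genes for the cyclins Pcl8 and Pcl10, which direct Pho85 to Gsy2, had changes of 0.35 ± 0.26 and 0.59 ± 0.26 (log2 ± SE; adjusted p = 0.295 and 0.1001, limma), and both were called with TPM as deposited (0.85 and 1.16). Both depended on single libraries. PCL8 was at 0.61 and called without edelfosine replicate 1 (adjusted p = 0.0302) but at 0.077 without edelfosine replicate 2 (0.710), and PCL10 was at 0.82 and called without edelfosine replicate 2 (0.0306) but at 0.29 without edelfosine replicate 1 (0.135). PCL7 rose by 0.74 (adjusted p = 0.0399, limma), a call lost without vehicle replicate 1, 2 or 3 (0.119, 0.150 and 0.0577) and without the strain term (0.0612). PHO85 itself, named after its values were seen, rose by 0.72 (adjusted p = 0.0140, limma), and this call did not hold without vehicle replicate 2 or 3 or edelfosine replicate 3 (0.0652, 0.0726 and 0.0589).

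Genes for subunits of protein kinase A, which opposes glycogen storage, moved in both directions. TPK3 fell by 1.04 ± 0.25 (log2 ± SE; adjusted p = 0.0127, limma). TPK2 rose by 1.31 and BCY1, for the inhibitory subunit, by 1.45 (log2), both named after their values were seen, and TPK2 missed the threshold without vehicle replicate 2 (adjusted p = 0.0514, limma). The fall of TPK3 did not pass without vehicle replicate 2 or 3 or edelfosine replicate 3 (adjusted p = 0.0663, 0.0598 and 0.0676) or with TPM as deposited (0.155). Among the genes of Snf1, a kinase that favours glycogen storage, and of the PAS kinases, which act on Ugp1, 1 of 4 rose and 1 fell, shares near those of all genes. PSK1 rose by 1.10 ± 0.15 (log2 ± SE). SNF4, for the activating subunit of Snf1, had a change of -0.45 ± 0.15 (SE; adjusted p = 0.0438, limma), which turned to 0.15 with TPM as deposited and was lost without any 1 of the 6 libraries (adjusted p = 0.0633 to 0.137). SGA1, for a glucoamylase that degrades glycogen during sporulation, was at 1.17, 0.96 and 0.93 scaled TPM with vehicle and at 4.58, 8.25 and 8.22 with edelfosine. It rose by 1.95 ± 0.23 (log2 ± SE; adjusted p = 0.00116, limma).

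Trehalose, the other storage carbohydrate of yeast, draws on the same precursors. Of 7 genes for its synthesis and breakdown 5 rose and 0 fell, against 27.3% of all genes in each direction, with a median log2 change of 2.20. The synthase gene TPS1 rose by 2.22 ± 0.31, the regulatory subunit gene TSL1 by 3.10 ± 0.45 and the neutral trehalase gene NTH1 by 2.29 ± 0.16 (log2 ± SE). The phosphatase gene TPS2 had a change of 1.19 ± 0.49 (SE) and was not called (adjusted p = 0.0779, limma). Without edelfosine replicate 1 it was called (1.77; adjusted p = 0.000739), and so was TPS3 (0.97; 0.00533), so that all 7 were. Without edelfosine replicate 2 the changes were smaller, 0.65 for TPS2 (0.0575) and 0.31 for TPS3 (0.170), and neither was called. No test of a difference between the trehalose and the glycogen genes was made.

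**Figure D5:**
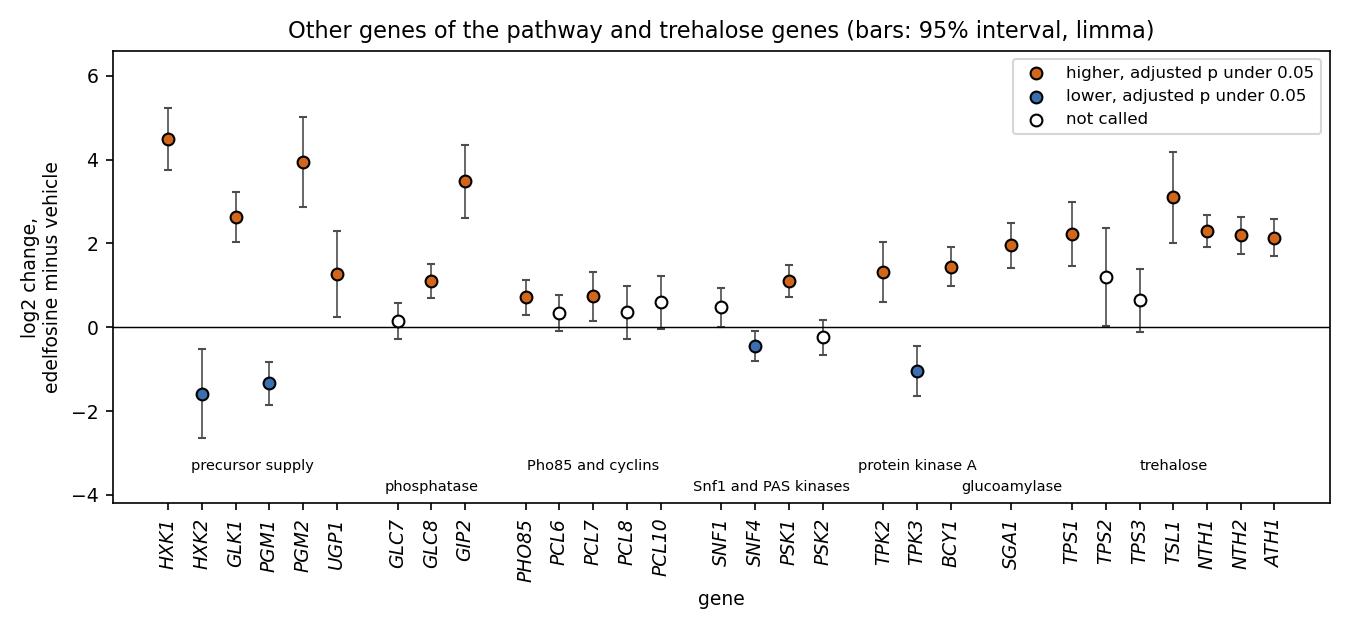
Log2 change, edelfosine minus vehicle, of 22 of the 23 other genes of the glycogen pathway grouped by role and of 7 trehalose genes, with 95% intervals from limma; filled points were called. HXK1, PGM2 and GIP2 lie highest, and HXK2, PGM1, TPK3, SNF4 and PSK2 lie below 0, PSK2 not called (SNF4 and PSK2 turned positive with TPM as deposited).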

How the data were processed

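RNA was measured in 6 libraries, 3 per treatment. The authors deposited 1 table of TPM per gene, with a column for each library. Its title speaks of read counts, but the values are not whole and every column sums to 1000000. Kallisto and sleuth are named, per the submitters' processing notes, with versions, build and transcript set not given in the sources used here. The R64 annotation held locus tags for 5911 of the 5917 rows.

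The filter was 1 TPM or more in 3 or more libraries, which 5707 rows passed. Library factors came from a trimmed mean of M values without weights, which dropped 30% of M and 5% of A values from either tail, and were 0.715 to 0.891 for vehicle and 1.20 to 1.25 for edelfosine. Log2(scaled TPM + 1) was fitted with limma 3.58.1 (R 4.3.3), using empirical Bayes moderation that follows the mean-variance trend, with treatment and strain as terms. Adjustment was by Benjamini-Hochberg over all rows and an adjusted p under 0.05 was called. The fit was also run on simulated data with far fewer changed genes and equal noise for every gene. That run therefore does not vouch for the calls made here. TPM keeps no depth, so no counting interval is given. Exact permutation tests used scipy 1.17.1.

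The members and gene lists were chosen with earlier results of these data known. All 10 members were named. Of the other lists, named genes were the largest called rise and fall of each role group, GIP2, GLC7, UGP1, PGM2, PCL8, PCL10, SGA1, TPS1, TPS2, TSL1 and NTH1. The protein kinase A group is an exception, as the rises named there are not its largest. PSK2, TPS3 and the genes marked as named after their values were seen fall outside this rule. Of the 23 other pathway genes, 1 is counted but not reported here by name. Alternatives covered scaling, pseudocount, filter, design, trend, a fold threshold of 1.5 and left-out libraries. Motif windows start at the annotated start codon. The printed stretch was the 200 bases with most matches between 600 and 100 bases upstream.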

Additional observations from a re-analysis of the deposited data

How the results depend on the processing

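The direction of all 10 glycogen genes held under every alternative run. The number called higher was 10 with TPM as deposited, 8 with median centring, 6 with at least 10 TPM in 3 libraries (which left GLG2, GAC1 and PIG1 untested), 6 without the strain term, 6 against a 1.5-fold change and 7 in the remaining settings with all libraries. With libraries left out it ranged from 6 to 9, and the number called lower was 0 throughout. The log2 change ranged over all settings from 3.26 to 4.23 for GPH1, from 2.24 to 4.04 for GDB1 and from 1.64 to 2.85 for GLC3. PIG2 also lost its call against a 1.5-fold change (adjusted p = 0.0701) and GLG2 was called with median centring (0.0482).

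Same-numbered libraries deviated together from their group means for replicates 1 and 3 (correlations 0.33 and 0.51) but hardly for replicate 2 (0.052). Vehicle replicate 2 and edelfosine replicate 1 correlated to a like degree (0.32), and replicate 3 differs from the others in strain. The numbers were therefore not taken as pairs. With the replicate number as a block, 7 members were called higher and 3 other pathway genes lower, and no member's call changed. SNF4 lost its call (adjusted p = 0.0548) and TPS2 gained one (0.0314).

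Of the other pathway genes, 1 was called lower with TPM as deposited, 1 against a 1.5-fold change, and 1 to 3 with libraries left out, in place of 4. The cause was not tested. PSK2, not called, went from -0.24 to 0.26 with TPM as deposited, and SNF4 to 0.15. Synthesis minus breakdown shifted by -1.57 with a pseudocount of 5 and by -2.33 with a pseudocount of 0.1. With libraries left out it shifted by -2.26 to -1.86, and the phosphatase-targeting genes minus synthesis by -0.82 to -0.087. The ratio of GPH1 to GDB1 reversed with a pseudocount of 0.1 (-0.26) and without replicate 1 (-0.026), where its exact permutation p was 0.7 and 1. With libraries left out the shift ranged from 0.21 to 1.06 for GLC3 to GSY2, 0.79 to 1.61 for GLG1 to GLG2, 1.51 to 2.43 for GPH1 to GSY2, -0.026 to 0.80 for GPH1 to GDB1, 0.55 to 1.23 for GSY2 to GSY1 and 0.99 to 1.37 for PIG1 to GAC1. Trehalose genes called higher numbered 5 to 7 and other pathway genes called higher 9 to 15 with libraries left out. SGA1 failed the filter and went untested wherever an edelfosine library was left out. With 3 libraries per treatment and unknown depth, low genes such as GDB1 and PIG1 depend most on the pseudocount.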
